A study of Homo sapiens with 6 samples.

Results

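Notch receptors, ligands and target genes were followed in HuCCT1, an established human cholangiocarcinoma cell line, after knockdown of C1QBP. The 10 genes were the receptors NOTCH1, NOTCH2 and NOTCH3, the ligands JAG1 and JAG2, and the target genes HES1, HES2, HES4, HEY1 and NRARP, matched by gene name among 58735 genes in the count table. They were chosen by their place in the pathway and because HES4 was already known to be among the larger falls of the comparison described here, so their fold changes are given as descriptions with no p-value, and nothing is read from whether the fit across all genes called them. The siC1QBP group (3 libraries) was treated to knock down C1QBP, and the siNC group (3 libraries), labelled wt, was its control. Both groups are the same line from bile duct. The labels do not give the time of treatment or say whether the replicates were separate cultures, so the spread between libraries may be technical. The study asked what C1QBP does in cholangiocarcinoma cells.

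Notch receptors are single-pass proteins that are cut when a ligand on a neighbouring cell, such as a Jagged protein, pulls on them. The freed intracellular domain enters the nucleus, joins the DNA-binding protein RBPJ and its Mastermind coactivators, and turns on genes of the HES and HEY families, which encode basic helix-loop-helix (bHLH) repressors. In the liver, JAG1 and NOTCH2 are known for their part in forming bile ducts, and inherited loss of either causes Alagille syndrome, in which bile ducts are too few.

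HES4 was the only one of the 10 genes that stood well apart between the groups, at 55.4% of its siNC level in siC1QBP cells. HES1, the best known Notch target, stood at 99.5% of its siNC level, and both ligands and NOTCH2 were within 2% of theirs. LFNG, the Fringe enzyme that changes which ligands a Notch receptor responds to, was not among the 10 and fell to 42.2 ± 2.41 CPM in siC1QBP cells, against 63.0 ± 2.69 CPM in siNC cells (SD, n = 3 each; edgeR adjusted p = 2.04e-05). CPM are counts scaled to the library's total after TMM normalization.

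The promoters of HES4 and HES1 are shown because both carry the RBPJ core motif, while HES4 stood apart between the groups and HES1 did not. Each sequence covers the 250 bases before and 50 bases after the gene's start, 5′ to 3′ on the gene's strand, from RefSeq on GRCh38.p14. The HES4 promoter lies at chr1:1000048-1000347 on the minus strand and that of HES1 at chr3:194135898-194136197 on the plus strand. Capitals mark TGGGAA, the core that RBPJ binds, searched on both strands.
HES4: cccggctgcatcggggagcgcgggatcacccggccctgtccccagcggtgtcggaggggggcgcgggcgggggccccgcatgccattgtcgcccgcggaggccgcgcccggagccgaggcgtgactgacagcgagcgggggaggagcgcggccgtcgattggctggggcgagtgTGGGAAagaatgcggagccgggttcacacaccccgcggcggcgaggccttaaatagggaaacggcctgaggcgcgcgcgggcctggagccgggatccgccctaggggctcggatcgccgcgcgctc
HES1: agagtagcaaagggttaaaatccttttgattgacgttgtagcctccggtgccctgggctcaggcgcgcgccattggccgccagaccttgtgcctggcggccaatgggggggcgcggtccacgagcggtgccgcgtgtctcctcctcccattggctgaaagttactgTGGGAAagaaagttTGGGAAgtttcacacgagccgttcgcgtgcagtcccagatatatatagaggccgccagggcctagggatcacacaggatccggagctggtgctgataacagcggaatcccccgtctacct
TGGGAA begins 76 bases before the RefSeq start of HES4, and 84 and 70 bases before that of HES1. The deposited gene coordinates start HES4 further upstream, at 1000172, which falls at this TGGGAA. Distances given here for the promoters are from the RefSeq starts. Promoters of 9 of the 10 genes were searched, and 2 of these 9, HES1 and HES4, held TGGGAA. For HES2 and NOTCH1 the searched window does not hold the start in the deposited coordinates, so the bases around that start were not searched. The promoter of the remaining gene, named below, was not searched, so whether it held TGGGAA was not tested. Of 35116 promoters of the same length, 24% held TGGGAA. HES1 and HES4 also held the longer form GTGGGAA, which overlaps the core and which 6.25% of the promoters held. The longest run of bases common to both promoters was TGTGGGAAAGAA (12 bases), which starts 78 bases before HES4 and 86 bases before HES1. It occurred in 8 of the 35116 promoters, these 2 included. The run was picked as the longest that these 2 promoters share, so nothing is read from that count. How long a run other pairs of promoters share was not tested. The N box CACNAG, a motif known to be bound by HES proteins, was found 4 times in the HES1 promoter and 0 times in that of HES4; 38% of promoters held it at least once. A match describes letters in this window and does not show that a protein binds there.

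Library totals were 17122252 to 18847340 counts in siC1QBP and 18313264 to 20416243 counts in siNC. C1QBP, the siRNA target and mainly a protein of the mitochondrial matrix, stood at 58.9 ± 1.19 CPM with siC1QBP and 180 ± 4.94 CPM with siNC (SD, n = 3 each). In the test across all genes (edgeR quasi-likelihood test, called at a Benjamini-Hochberg adjusted p under 0.05), 1005 of 15530 genes were higher and 1217 lower; with library size as the only scaling 1253 were higher and 908 lower. These 2222 calls compare with 1105 when siNC replicate 2 was left out and 1178 when siNC replicate 3 was. Replicate 1 of siC1QBP stood apart: its counts differed from those of replicates 2 and 3 with chi-square values of 6.66 and 6.77 for each degree of freedom, against 2.09 for replicate 2 with replicate 3. Replicate 1 of siNC differed from siNC replicates 2 and 3 with values of 3.67 and 3.40, against 2.13 for those with each other. The mitochondrial share of counts was 4.20% to 4.80% in siC1QBP and 3.66% to 3.88% in siNC, and genes with at least 1 count numbered 25001 to 25506 in siC1QBP and 23395 to 23841 in siNC. Among bile duct markers, KRT7 averaged 3151 CPM with siC1QBP and 3766 CPM with siNC, and KRT19 averaged 1658 CPM with siC1QBP and 1888 CPM with siNC; both were called lower (edgeR adjusted p = 0.000214 and 0.00862). EPCAM averaged 315 CPM with siC1QBP and 324 CPM with siNC, with overlapping groups. SOX9 averaged 64.4 CPM with siC1QBP and 58.3 CPM with siNC, without overlap, and was not called. The 4 hepatocyte markers together reached at most 0.173 CPM with siC1QBP and 0.109 CPM with siNC, with TTR at 0 in every library. The 4 leukocyte markers summed to at most 0.445 CPM with siC1QBP and 0.220 CPM with siNC, with CD3E at 0. The 3 endothelial markers summed to 3.05 to 3.95 CPM with siC1QBP and 2.47 to 3.70 CPM with siNC, and the 4 fibroblast markers to 9.34 to 12.6 CPM with siC1QBP and 8.33 to 10.4 CPM with siNC. Most of the fibroblast sum came from LUM, which averaged 9.73 CPM with siC1QBP and 7.56 CPM with siNC. The next highest, PDGFRB, averaged 1.07 CPM with siC1QBP and 1.13 CPM with siNC. What part these markers, the mitochondrial share and the number of genes with a count have in the results was not tested.

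NOTCH2 had the highest level per kilobase of the 3 receptors. NOTCH2 (ENSG00000134250; hg38 chromosome 1, 119911553 to 120069626, minus strand) had 284, 265 and 277 CPM in siC1QBP replicates 1, 2 and 3 and 286, 276 and 278 CPM in siNC replicates 1, 2 and 3. The groups overlapped, and the log2 fold change, siC1QBP over siNC as throughout, was -0.02 (SE 0.04). NOTCH2 shares sequence with NOTCH2NLA, a partial copy that stood at 1.29 ± 0.146 CPM with siC1QBP and 1.07 ± 0.236 CPM with siNC. Some reads of either gene may be counted for the other, and how many was not tested. After removal of each library's trend with gene length and GC content, the log2 fold change of NOTCH2, at 16807 bases the longest of the 10 genes, was -0.13 (SE 0.04).

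NOTCH1 (ENSG00000148400; chromosome 9, 136494433 to 136545786, minus strand), a receptor with both growth-promoting and growth-limiting roles in cancers, had 35.2, 39.5 and 37.3 CPM with siC1QBP and 37.1, 40.6 and 42.0 CPM with siNC. These ranges overlapped, with a log2 fold change of -0.10 (SE 0.07) that kept its sign in the 16 other fits. NOTCH3 (ENSG00000074181; chromosome 19, 15159038 to 15200981, minus strand), the receptor typical of vascular smooth muscle, had 4, 2 and 8 counts in siC1QBP and 6, 2 and 2 counts in siNC libraries. It was the one gene of the 10 that did not pass the low-count filter. Most of its counts lay near 3, the upper limit that a count of 0 allows, so no fold is given. Since these are bulk samples, fewer expressing cells and less RNA per cell cannot be told apart for any gene here.

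Both ligands were level. JAG1 (ENSG00000101384; chromosome 20, 10637684 to 10673999, minus strand) had 165, 151 and 157 CPM with siC1QBP and 156, 154 and 163 CPM with siNC, with a log2 fold change of 0.00 (SE 0.05). JAG2 (ENSG00000184916; chromosome 14, 105140981 to 105168824, minus strand) had 25.6, 22.7 and 21.8 CPM with siC1QBP and 23.2, 23.7 and 22.9 CPM with siNC, with a log2 fold change of 0.00 (SE 0.08). For each ligand the siNC libraries lay inside the range of the siC1QBP libraries. Small annotated genes overlap the loci of NOTCH1, NOTCH3, JAG1 and JAG2. The highest of the overlapping genes at any of the 10 loci, the antisense gene AL592301.1 at NOTCH1, averaged 0.205 CPM with siC1QBP and 0.0729 CPM with siNC.

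**Figure D1:**
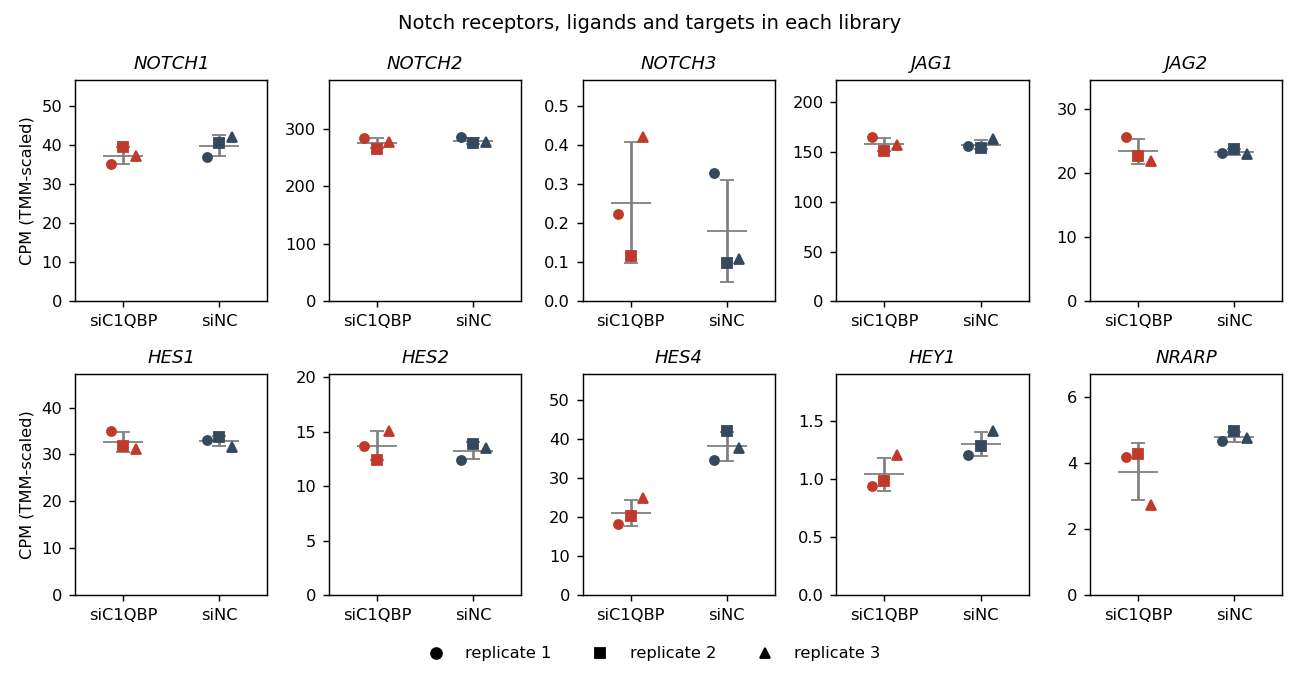
TMM-scaled CPM (linear axes from 0) of the 10 genes in each library, siC1QBP left of siNC; symbols mark replicates, and grey bars give mean and SD (n = 3). The HES4 libraries run from 18.3 to 24.8 CPM in siC1QBP and from 34.7 to 42.1 CPM in siNC, while the HES1 groups overlap.

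Among the targets, HES4 (ENSG00000188290; chromosome 1, 998962 to 1000172, minus strand), a HES-family repressor, had 329, 352 and 473 counts in siC1QBP replicates 1, 2 and 3 and 632, 849 and 695 counts in siNC replicates 1, 2 and 3. In CPM these were 18.3, 20.3 and 24.8 in siC1QBP and 34.7, 42.1 and 37.9 in siNC. Every siC1QBP library lay below every siNC library, and the gap between the groups was wider than the range within either. The log2 fold change was -0.85 (SE 0.10), the 16th largest of the 1217 genes called lower, next to PRELID3A (-0.86) and SLIRP (-0.84). This is the value that chose HES4, so its size, rank and call support nothing further.

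HES4 lay at the edge of properties that moved with fold changes across all genes. Its length in the deposited table was 1118 bases; among the 3107 shortest of the tested genes (up to 2292 bases), 90 were called higher and 354 lower. Its annotated transcripts held 74.2% G and C, and among the 3105 tested genes richest in GC 188 were called higher and 426 lower. With the length trend removed, its log2 fold change was -0.79 (SE 0.09), and with both trends removed it was -0.58 (SE 0.08). Leaving out single libraries gave -0.99 (without siC1QBP replicate 3) to -0.76 (without siC1QBP replicate 1).

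HES1 (ENSG00000114315; chromosome 3, 194136145 to 194138732, plus strand) had 35.0, 31.9 and 31.1 CPM with siC1QBP and 33.1, 33.8 and 31.6 CPM with siNC. The siNC libraries lay within the siC1QBP range, and the log2 fold change was -0.01 (SE 0.07). HES2 (ENSG00000069812; chromosome 1, 6412418 to 6424670, minus strand), a less studied HES repressor, had 13.7, 12.4 and 15.1 CPM with siC1QBP and 12.4, 13.9 and 13.5 CPM with siNC. Its groups overlapped too, with a log2 fold change of 0.05 (SE 0.10).

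HEY1 and NRARP had low counts and were slightly lower. HEY1 (ENSG00000164683; chromosome 8, 79764010 to 79767863, minus strand), a HES-related repressor best known from blood vessels and heart, had 17, 17 and 23 counts in siC1QBP and 22, 26 and 26 counts in siNC libraries. NRARP (ENSG00000198435; chromosome 9, 137300482 to 137302251, minus strand), an ankyrin-repeat protein that feeds back on Notch signalling, had 75, 74 and 52 counts in siC1QBP and 85, 100 and 87 counts in siNC libraries. In CPM, both sets of groups were free of overlap, HEY1 narrowly so, with its highest siC1QBP and lowest siNC library both at 1.21 CPM. The log2 fold changes were -0.32 (SE 0.30) for HEY1 and -0.37 (SE 0.19) for NRARP, each under 2 SE. For NRARP, replicate 3 of siC1QBP was the low library, and without it the log2 fold change was -0.18. With length and GC trends removed, the log2 fold change of NRARP was -0.17. The HEY1 promoter was the one not searched for the core that RBPJ binds.

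Across the 10 genes, 9 passed the filter, 1 was called lower and 0 higher (edgeR). The same 1 and 0 were found at an unadjusted p under 0.05 (edgeR), with DESeq2 and with limma-voom. Among all genes 14.3% were called, 6.47% higher and 7.84% lower. With length and GC trends removed, 2 of the members were called lower, NOTCH2 and HES4, beside 1302 genes lower among all. Adding a replicate block to that fit gave the same 2, beside 1472 genes lower among all. For 3 of the 10 genes, HES4, HEY1 and NRARP, the groups did not overlap in CPM, against 32.6% of all tested genes. Nothing is read from these counts, since the genes were chosen with this comparison known.

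**Figure D2:**
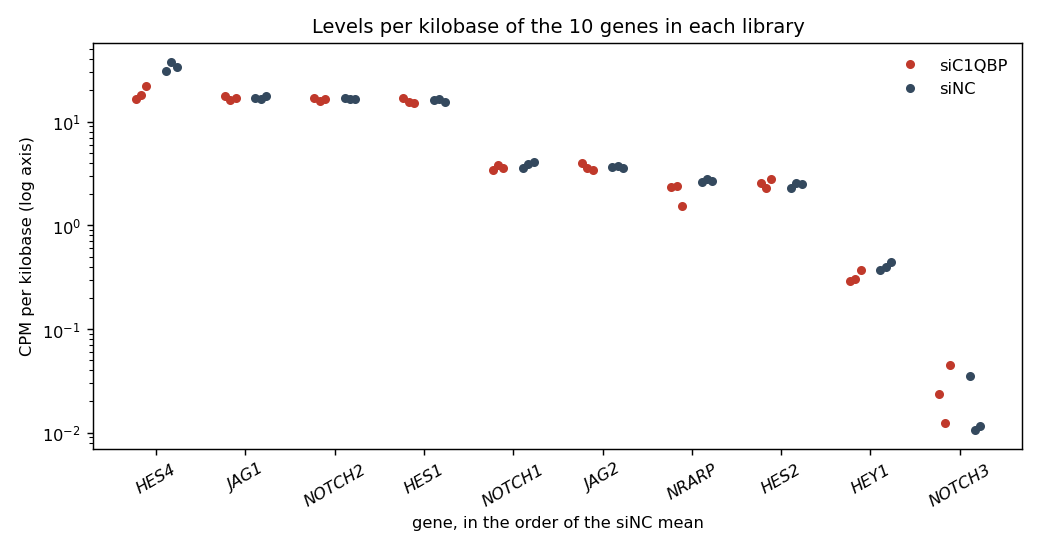
CPM per kilobase of gene length (log axis) of the 10 genes in each library, siC1QBP left of siNC, ordered by the siNC mean. HES4 is the highest in every siNC library, while in siC1QBP replicate 1 of HES4 lies among the libraries of JAG1, NOTCH2 and HES1, and replicates 2 and 3 lie above them. Within siC1QBP replicate 1, HES4 lies below each of these genes.

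To compare genes with each other, CPM were divided by gene length in kilobases. The deposited data give a single length for each gene, though JAG1 has 9 annotated transcripts and HES4 has 4. Order and shares between genes depend on these lengths, and which transcripts the cells used was not tested. In siNC libraries HES4 was highest at 34.2 ± 3.34 CPM per kilobase (SD, n = 3), followed by JAG1 at 16.9 ± 0.495, NOTCH2 at 16.6 ± 0.316 and HES1 at 15.9 ± 0.531. JAG1 and NOTCH2 overlapped, whereas all HES4 libraries lay above all JAG1 libraries. The highest HES1 and the lowest NOTCH2 siNC library both rounded to 16.4 CPM per kilobase, so these neighbours were barely apart. NOTCH1 at 3.85 ± 0.248 and JAG2 at 3.64 ± 0.0632 overlapped, and NRARP at 2.71 ± 0.0872, HES2 at 2.45 ± 0.143, HEY1 at 0.404 ± 0.0325 and NOTCH3 at 0.0191 ± 0.0139 CPM per kilobase followed. In siC1QBP libraries HES4 averaged 18.9 ± 3.00 CPM per kilobase, next to JAG1 at 16.96 ± 0.746, NOTCH2 at 16.4 ± 0.560 and HES1 at 15.9 ± 0.996. The HES4 replicates stood at 16.4, 18.2 and 22.2 CPM per kilobase, so that replicate 1 lay among the libraries of these 3 genes and replicates 2 and 3 lay above them.

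As shares of the family's level per kilobase, NOTCH2 made up 81.9% ± 1.32 of the 3 receptors in siC1QBP and 81.1% ± 1.19 in siNC libraries (SD, n = 3 each). JAG1 made up 82.3% ± 0.787 of the ligand level in siC1QBP and 82.3% ± 0.648 in siNC. HES4 made up 50.1% ± 4.83 of the summed level of HES1, HES2, HES4 and HEY1 in siC1QBP and 64.5% ± 1.89 in siNC. HES1 made up 42.3% ± 4.83 of it in siC1QBP and 30.1% ± 1.87 in siNC, while the HES1 level itself overlapped between the groups.

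In the annotation, HES4 has a divergent neighbour. The outermost annotated start of ISG15, an interferon-induced ubiquitin-like protein, is 0.966 kb away on the opposite strand. The gene spans 1001138 to 1014540 with 4 annotated transcripts, and which of their starts the cells used was not tested. ISG15 fell with a log2 fold change of -0.36 (SE 0.09; edgeR adjusted p = 0.0146). It had 48.3, 59.3 and 54.5 CPM with siC1QBP and 59.4, 80.4 and 67.9 CPM with siNC, so the groups nearly touched, and without siNC replicate 2 the call was lost (edgeR adjusted p = 0.115). AGRN, which encodes the basement membrane proteoglycan agrin and starts 19.951 kb away, fell to 986 ± 16.8 CPM in siC1QBP, against 1130 ± 18.3 CPM in siNC libraries (SD, n = 3 each; log2 fold change -0.20, SE 0.04; edgeR adjusted p = 0.00224).

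Of 19 annotated genes starting within 100 kb of HES4, 12 were tested, and 2 were called lower and 1 higher, against 14.3% of all genes in either direction. The one called higher, PERM1, a regulator of muscle mitochondrial genes, had 5.06, 6.98 and 6.51 CPM with siC1QBP and 4.28, 4.42 and 4.41 CPM with siNC (log2 fold change 0.50, SE 0.16; edgeR adjusted p = 0.0483). It was no longer called with DESeq2 or limma-voom, or when any single library other than siC1QBP replicate 1 was left out (edgeR adjusted p at most 0.177). NOC2L, a nucleolar protein gene, stood at 160 ± 1.90 CPM with siC1QBP and 171 ± 4.92 CPM with siNC, and KLHL17 at 19.2 ± 3.99 CPM with siC1QBP and 20.4 ± 0.386 CPM with siNC; neither was called.

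**Figure D3:**
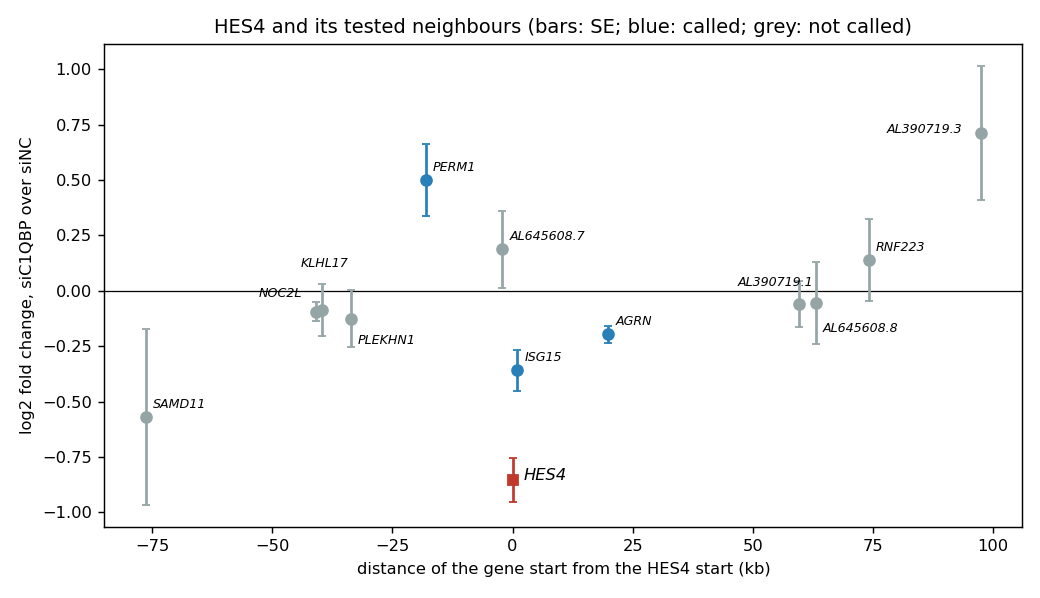
Log2 fold change (siC1QBP over siNC, bars SE) of HES4 (red square, no test) and of the 12 tested genes starting within 100 kb, by distance of their starts in kb; blue points were called at an adjusted p under 0.05, grey points were not. ISG15 (-0.36) and AGRN (-0.20) lie below 0 and PERM1 (0.50) above.

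The genes whose log2 CPM followed HES4 most closely over the 6 libraries, among the 11088 genes averaging 5 CPM or more, were LSM3 and LSM11, which encode Sm-like RNA-binding proteins, FARSA, a subunit of phenylalanyl-tRNA synthetase, DGAT2, which makes triglycerides, and TOLLIP, an adaptor of Toll-like receptor signalling. Their Pearson r ranged from 0.993 to 0.997, and their log2 fold changes from -0.40 for LSM3 to -0.18 for TOLLIP. Of the other tested members, HEY1 and NRARP averaged under 5 CPM, so their r rests on few counts. HEY1 had an r of 0.91 with HES4, NOTCH1 0.65, NRARP 0.47 and HES1 -0.12. These values describe 6 libraries that share the group difference.

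The wider pathway was read from 81 further genes in 8 roles, of which 70 were tested. LFNG had 39.5, 43.8 and 43.5 CPM with siC1QBP and 60.2, 65.6 and 63.1 CPM with siNC. All siC1QBP libraries lay below all siNC libraries, and the fall (log2 fold change -0.58, SE 0.06; edgeR adjusted p = 2.04e-05) was called in each of the 17 other settings, where its adjusted p was at most 0.000624. With length and GC trends removed the log2 fold change was -0.51. Of 9 tested enzymes that modify receptors or ligands, LFNG was the only 1 called (lower). Among all genes 7.84% were lower and 6.47% higher (edgeR). DESeq2 and limma-voom each called 1 lower and 0 higher, and edgeR gave 1 lower and 1 higher at an unadjusted p under 0.05. POFUT1, which adds the fucose that Fringe extends, stood at 122 ± 8.55 CPM with siC1QBP and 116 ± 1.43 CPM with siNC.

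Of 9 genes for receptor cleavage, 1 rose and 0 fell, against 6.47% higher and 7.84% lower among all genes (edgeR; 4 higher and 0 lower at an unadjusted p under 0.05, and 1 higher and 0 lower with DESeq2 and with limma-voom). The one that rose was NCSTN, the nicastrin subunit of gamma-secretase, which had 104, 105 and 107 CPM with siC1QBP and 95.2, 92.1 and 94.7 CPM with siNC (log2 fold change 0.17, SE 0.05; edgeR adjusted p = 0.0263). Leaving out replicate 2 or 3 of either group, or filtering at 1 count, ended the call, and the largest adjusted p of any fit was 0.129 (edgeR). The sheddase ADAM10, which makes the first cut after ligand binding, stood at 175 ± 2.86 CPM with siC1QBP and 163 ± 6.00 CPM with siNC and was not called.

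Among 12 tested ubiquitin ligases and endocytic regulators, 1 fell and 0 rose, near the 7.84% lower among all genes (edgeR; 2 lower and 1 higher at an unadjusted p under 0.05, 1 and 0 with DESeq2 and with limma-voom). It was DTX3L, a Deltex-family ligase, at 89.0 ± 2.33 CPM with siC1QBP and 101 ± 2.34 CPM with siNC (SD, n = 3 each; log2 fold change -0.19, SE 0.05; edgeR adjusted p = 0.0166). That call did not hold without replicate 2 or 3 of either group, with a largest adjusted p of 0.0648 (edgeR). NUMB, an inhibitor of Notch receptors, stood at 128 ± 1.14 CPM with siC1QBP and 117 ± 3.89 CPM with siNC (log2 fold change 0.13, SE 0.05) and was not called.

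None of the 9 genes of the nuclear activator complex was called by edgeR, DESeq2 or limma-voom, and 1 was higher and 0 lower at an unadjusted p under 0.05 (edgeR). EP300, an acetyltransferase gene with the highest CPM of the 9, stood at 138 ± 5.55 CPM with siC1QBP and 137 ± 2.75 CPM with siNC. RBPJ itself, singled out after its values were seen, stood at 111 ± 5.41 CPM with siC1QBP and 115 ± 8.12 CPM with siNC (log2 fold change -0.04, SE 0.06). Of 16 corepressor genes, 1 fell and 1 rose, against 7.84% lower and 6.47% higher among all genes (edgeR; 3 lower and 1 higher at an unadjusted p under 0.05). DESeq2 called 2 lower and 1 higher, and limma-voom 1 lower and 1 higher. CTBP1, a corepressor that HES proteins and the RBPJ repressor complex are known to recruit, had 64.0, 70.7 and 69.7 CPM with siC1QBP and 76.5, 85.0 and 86.3 CPM with siNC (log2 fold change -0.28, SE 0.06; edgeR adjusted p = 0.00516). FHL1, of which one isoform binds RBPJ, had 22.3, 18.2 and 21.3 CPM with siC1QBP and 14.8, 14.7 and 18.0 CPM with siNC (log2 fold change 0.38, SE 0.10; edgeR adjusted p = 0.0201). FHL1 was not called when replicate 3 of siC1QBP or replicate 1 or 2 of siNC was left out, with a largest adjusted p of 0.110 (edgeR).

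The other receptor, ligands and HES or HEY genes had low counts. Of NOTCH4 and the ligands DLL1, DLL3, DLL4, DLK1 and DLK2, 3 were tested and 0 called (edgeR, DESeq2 and limma-voom, and 0 at an unadjusted p under 0.05 in edgeR), with DLK2 highest at 2.50 ± 0.757 CPM with siC1QBP and 1.99 ± 0.184 CPM with siNC. Of HES3, HES5, HES6, HES7, HEY2 and HEYL, only HES6 passed the filter. It stood at 3.36 ± 0.339 CPM with siC1QBP and 4.09 ± 0.428 CPM with siNC and was not called by edgeR, DESeq2 or limma-voom, nor at an unadjusted p under 0.05 (edgeR).

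Of 11 tested genes reported elsewhere as Notch targets, 2 fell and 1 rose, beside shares of 7.84% lower and 6.47% higher over all genes (edgeR; 3 lower and 3 higher at an unadjusted p under 0.05). DESeq2 and limma-voom each called 2 lower and 0 higher. CCND1, the G1 cyclin D1, had 874, 775 and 788 CPM with siC1QBP and 994, 1009 and 979 CPM with siNC (log2 fold change -0.29, SE 0.05; edgeR adjusted p = 0.00054). ID1, an inhibitor of bHLH factors, had 226, 234 and 224 CPM with siC1QBP and 248, 283 and 279 CPM with siNC (log2 fold change -0.24, SE 0.05; edgeR adjusted p = 0.00371). DUSP1, a phosphatase of MAP kinases, stood at 14.4 ± 0.919 CPM with siC1QBP and 11.6 ± 0.847 CPM with siNC (log2 fold change 0.32, SE 0.10; edgeR adjusted p = 0.0481). The DUSP1 call was lost in 9 of 17 other settings, among them DESeq2, limma-voom and those leaving out replicate 2 or 3 of siC1QBP or any one siNC library, with a largest adjusted p of 0.166 (edgeR). CDKN1A, a cell cycle inhibitor and the uncalled gene of this role with the highest CPM, stood at 169 ± 5.72 CPM with siC1QBP and 179 ± 13.1 CPM with siNC. These genes answer to many pathways besides Notch.

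In all, 5 of the 70 tested genes fell and 3 rose, against 7.84% lower and 6.47% higher among all genes. The median log2 fold change was 0.01 over the 70 genes and 0.00 over all 15530, and 33 of the 70 lay below 0. The 3 rises became 0 without siC1QBP replicate 3 or siNC replicate 2, 1 without siNC replicate 1 or 3, and 6 with a filter of at least 10 CPM; the falls numbered 4 to 6 with any one library left out.

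**Figure D4:**
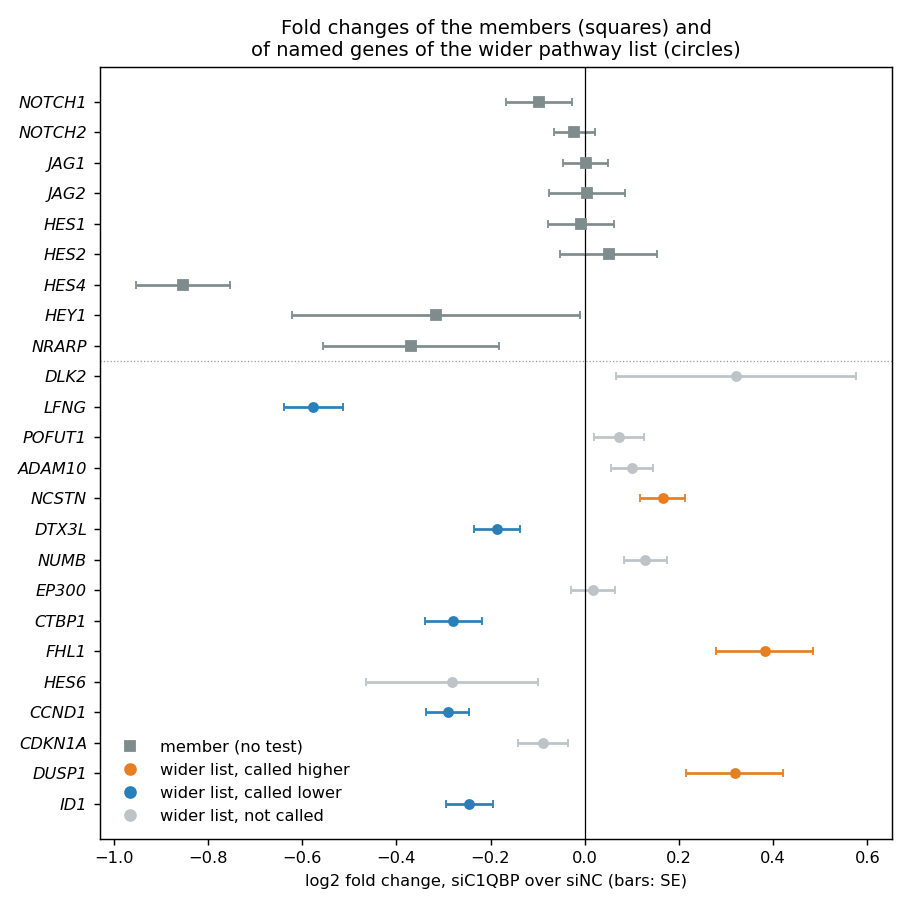
Log2 fold change (siC1QBP over siNC) with SE bars for the 9 tested members (squares, no test) and the named genes of the wider list (circles; blue lower, orange higher, grey not called). HES4 (-0.85) and LFNG (-0.58) lie farthest to the left.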

How the data were processed

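RNA sequencing counts of HuCCT1 cells were analysed in 3 siC1QBP and 3 siNC libraries. The deposited values are unnormalized whole-number counts for each gene, beside its length in bases, per the file headers. Per the labels' protocols, libraries came from total RNA with a strand-marking kit. The submitters' processing notes name hg38; which aligner, counter and strand setting were used is not given here. Library totals were 17122252 to 20416243 counts, and 3 counts, the level a count of 0 allows, equal 0.149 to 0.173 CPM (counting error only).

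Genes were tested with edgeR 4.0.16 in R 4.3.3 (quasi-likelihood test, TMM, filterByExpr, treatment as the only term, Benjamini-Hochberg adjustment over all 15530 tested genes, checked on simulated counts). An SE is the log2 fold change divided by the square root of its F statistic. The members and lists were chosen with earlier results of these data known. All members were named, and per role of the wider list up to 3 called genes with the smallest p and the uncalled gene with the highest CPM. Genes within 100 kb of HES4 and the 5 most like it were also named. Some genes that the rule or the marker lists hold are not reported here. Alternatives were DESeq2 1.42.0, limma-voom (limma 3.58.1), other scalings and filters, removal of length trends, single libraries left out, a replicate block and an adjusted p under 0.01; joint removal of length and GC trends was added after seeing the data. GC content came from GENCODE 29 transcripts.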

Additional observations from a re-analysis of the deposited data

How the results depend on the processing

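HES4 stayed below 0 in the 16 other fits (log2 fold change -0.99 to -0.58), as did NOTCH1, and HEY1 and NRARP in the 15 that could give a value; JAG1, JAG2, HES1, HES2 and NOTCH2 crossed 0 between fits. Of the 9 tested members 6 lay below 0, and 3 with a filter of at least 10 CPM, which leaves out HEY1 and NRARP. The number was 4 to 9 with 1 library left out (9 without siNC replicate 1), 8 with DESeq2 and with a filter of 1 count, and 4 with library size only. With an adjusted p under 0.01, 1057 genes were called (478 higher and 579 lower) and 0 members of the wider list were higher. Leaving out 1 library gave 1105 to 2583 calls, 524 to 1115 higher and 581 to 1468 lower, and 0 to 3 higher in the wider list. The number higher in the wider list was 6 with at least 10 CPM and 5 with library size only. The number lower was 8 with a replicate block and both trends removed. Lengths shortened by 200 bases kept the rank of 7 of the 10 genes in siNC.

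Whether the replicate numbers pair the libraries could not be decided. Deviations of same-numbered libraries correlated at only -0.0094 to 0.0433, yet 4 of 6 libraries correlated best with their own number. With the replicate block 3092 genes were called, and 7 genes of the wider list were higher and 6 lower. NUMB was called in 3 of 16 other fits; the cause was not tested. Counts as low as those of NOTCH3 and HEY1 limit what can be said of these genes.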

Other observations

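The deposited table marks 101 genes as bHLH factors, the class that holds the HES and HEY genes, and 46 of them were tested. Of these 8 fell, HES4 included, and 3 rose (edgeR adjusted p under 0.05), against 7.84% lower and 6.47% higher among all genes; DESeq2 gave 8 and 2 and limma-voom 8 and 3. The list was taken up after the data were seen, and the genes named here were chosen after their values were seen. Besides HES4, the larger falls were MESP1, a factor of early mesoderm, at 5.43 ± 0.796 CPM with siC1QBP and 8.42 ± 1.51 CPM with siNC (log2 fold change -0.64, SE 0.16), and MXD3, a partner of MAX, at 19.3 ± 3.10 CPM with siC1QBP and 29.3 ± 2.54 CPM with siNC (log2 fold change -0.60, SE 0.10). ARNT, the dimer partner of the aryl hydrocarbon receptor, rose to 47.7 ± 1.92 CPM in siC1QBP, against 37.9 ± 0.781 CPM in siNC libraries (log2 fold change 0.33, SE 0.06), while AHR itself fell (-0.16, SE 0.05). TCF3, an E protein that ID1 is known to bind, rose to 99.9 ± 2.47 CPM in siC1QBP, against 83.7 ± 2.47 CPM in siNC libraries (log2 fold change 0.26, SE 0.05). All values are SD with n = 3 each unless given as SE.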
